A study of Homo sapiens with 16 samples.

Results

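The mRNAs of 41 genes for translation initiation, elongation and termination factors outside the cap-binding complex eIF4F were followed in MIA PaCa-2, an established line of human pancreatic cancer cells, and 37 of the 41 could be measured among the 19775 genes on the arrays. The members are the listed factors of each step of translation: each was matched to the array's probe sets through the platform's gene annotation, and where a gene had several probe sets the one with the highest mean over the 16 arrays was used. EEF1B2, EEF1G and PABPC4 had only probe sets shared with another gene and EEF1E1 had none, so these 4 genes have no value here. Cells received either the vehicle DMSO or PP242, an inhibitor of the mTOR kinase in both of its complexes, at 2.5 µM for 12 h. From each treatment 2 RNA pools were hybridised: cytosolic RNA, and polysome RNA, which was the pooled gradient fractions (10% to 50% sucrose) whose mRNAs carried more than 3 ribosomes. Crossing pool with treatment gave 4 groups of 4 arrays each. All cells came from 1 line, and the labels do not say that the replicates were separate cultures, so the p-values measure the spread between these samples, which may be technical. These are bulk samples, in which fewer cells with an mRNA and less of it per cell cannot be told apart.

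As background, translation starts when eIF2, loaded with GTP and the initiator tRNA, joins eIF3, eIF1, eIF1A and eIF5 on the small ribosomal subunit, and the complex is then led to the cap and scans for a start codon. The exchange factor eIF2B returns eIF2 to its GTP form, and kinases that phosphorylate the alpha subunit of eIF2 turn it into an inhibitor of eIF2B. mTOR acts on translation mainly through the cap-binding complex and through mRNAs that begin with a C followed by a run of pyrimidines, the 5′ terminal oligopyrimidine or TOP motif, which is typical of ribosomal protein genes and of several elongation factors, eIF3 subunits, the poly(A)-binding protein and TPT1.

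The annotated transcript starts of the members are shown first because the TOP motif lies there. The RefSeq promoter table (build GRCh38.p14) held 29 of the 37 measured members, and 9 of these 29 (31.0%) had an annotated start at a C followed by at least 4 more C or T. The pattern was read on the gene's own strand and only from the first transcript base, so no 2 matches overlap. Over all its entries, 4.07% of 35116 starts and 5.14% of 27305 genes met that pattern. The 9 starts follow, each with 10 bases before the start and the first 20 bases of the transcript, 5′ to 3′ on the gene's strand, with the pyrimidine run from the first transcript base in capitals.
EIF2A (chr3:150546777-150546806, plus strand): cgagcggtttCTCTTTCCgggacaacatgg
EIF2S3 (chrX:24054946-24054975, plus strand): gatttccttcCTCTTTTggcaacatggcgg
EIF3D (chr22:36529147-36529176, minus strand): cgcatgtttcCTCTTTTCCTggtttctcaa
EIF3F (chr11:7987327-7987356, plus strand): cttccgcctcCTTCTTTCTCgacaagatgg
EIF3K (chr19:38619178-38619207, plus strand): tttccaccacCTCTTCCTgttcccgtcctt
EIF3M (chr11:32583821-32583850, plus strand): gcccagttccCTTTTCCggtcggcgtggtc
EEF1A1 (chr6:73521013-73521042, minus strand): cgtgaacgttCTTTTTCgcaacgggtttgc
EEF2 (chr19:3985444-3985473, minus strand): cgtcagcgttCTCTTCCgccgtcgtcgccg
TPT1 (chr13:45341164-45341193, minus strand): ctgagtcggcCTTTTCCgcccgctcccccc
For contrast, the same windows follow for EIF2S1, EIF2B1, EIF2B3 and EIF3J, the members in the table that fell on polysomes, and for EIF1AX, which had the largest fall in the cytosol. They carry no capitals because none starts with such a run.
EIF2S1 (chr14:67360318-67360347, plus strand): gaggttccgcatgcgcggtggagtgagcga
EIF2B1 (chr12:123633667-123633696, minus strand): gtacggaagtgcgccggaagtggggtgcgg
EIF2B3 (chr1:44986576-44986605, minus strand): gctgtcagtcagaggcggcgtggagatcgc
EIF3J (chr15:44537137-44537166, plus strand): ccgccgtgctaactcctcgctagctctccc
EIF1AX (chrX:20141819-20141848, minus strand): gagtcgcggcgccatttgctgccgccgagc
A match describes these letters at the annotated start and is no evidence of regulation; the start used in these cells was not measured.

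Values are RMA log2 intensities, so a difference of 1 is a doubling, and they rank arrays for 1 gene but not genes against each other. Array medians over all genes were 5 to 5.05 in cytosolic and 4.57 to 4.63 in polysome RNA, arrays of a group correlated at 0.972 to 0.997, and array number limits the precision. Within each pool these medians were alike with vehicle and PP242. A change common to all mRNAs of a pool may therefore not show, and each PP242 difference is relative to the pool's other mRNAs. The cytosolic PP242 arrays 2 and 4 stood apart: their estimated array weights were 0.36 and 0.251, the median SD over all genes was 0.245 in that group against 0.122 to 0.159 in the others, and cytosolic differences are also given without these 2 arrays wherever a member's call changed. Each gene's SE rests on 1 spread over all 4 groups, so a wide cytosolic PP242 group also widens the SEs of polysome differences. KRT8, KRT18, KRT19 and VIM, the markers of this carcinoma line, lay between 9.18 and 14.4 on all arrays. Their mean was higher with PP242, with no overlap, at 13.39 to 13.42 against 12.83 to 13.05 on polysomes and 12.56 to 13.18 against 11.84 to 12.04 in the cytosol. Of 11 markers of other cell types, PTPRC, LYZ, CDH5, CPA1 and GCG had means of at most 3.33 over the 16 arrays, INS, CD3E, DCN, PECAM1 and COL1A1 of 4.27 to 6.95, and the fibroblast collagen COL1A2 of 11.54. The mean of the 3 fibroblast markers was 7.95 to 8.37 in polysome vehicle against 7.69 to 7.99 in polysome PP242, and 7.76 to 8.13 in cytosolic vehicle against 7.53 to 7.83 in cytosolic PP242. The part of these shifts in the results was not tested. The EEF1A1 probe set, at a mean of 14.49, itself reached the highest value on any array, 14.61. A rise may be hard to see so high on the scale, which was not tested.

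In polysome RNA, 6 factor mRNAs were lower with PP242 relative to the other mRNAs of the pool. They encode the eIF2 subunits EIF2S1 and EIF2S2, the eIF2B subunits EIF2B1 and EIF2B3 and the eIF3 subunits EIF3E and EIF3J. No factor mRNA was called higher in this fit, the main fit, which has no block for the replicate number. That is 6 of 37 members called (16.2%, all lower) at an adjusted p under 0.05, beside 13.4% of all genes (6.82% higher and 6.55% lower), a share near the background. The median difference was -0.17 over the members and -0.005 over all genes. By group it was -0.63 for the 3 eIF2 subunits, -0.31 for the 5 eIF2B subunits, -0.17 for the 13 eIF3 subunits and -0.067 for the 5 measured elongation factors, and no test of the difference between these groups was made. The eIF2, eIF2B and eIF3 medians stayed below 0 under all scalings tried, while the elongation median turned to 0.079 under cyclic loess, which also split the calls into 4 higher and 5 lower.

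**Figure D1:**
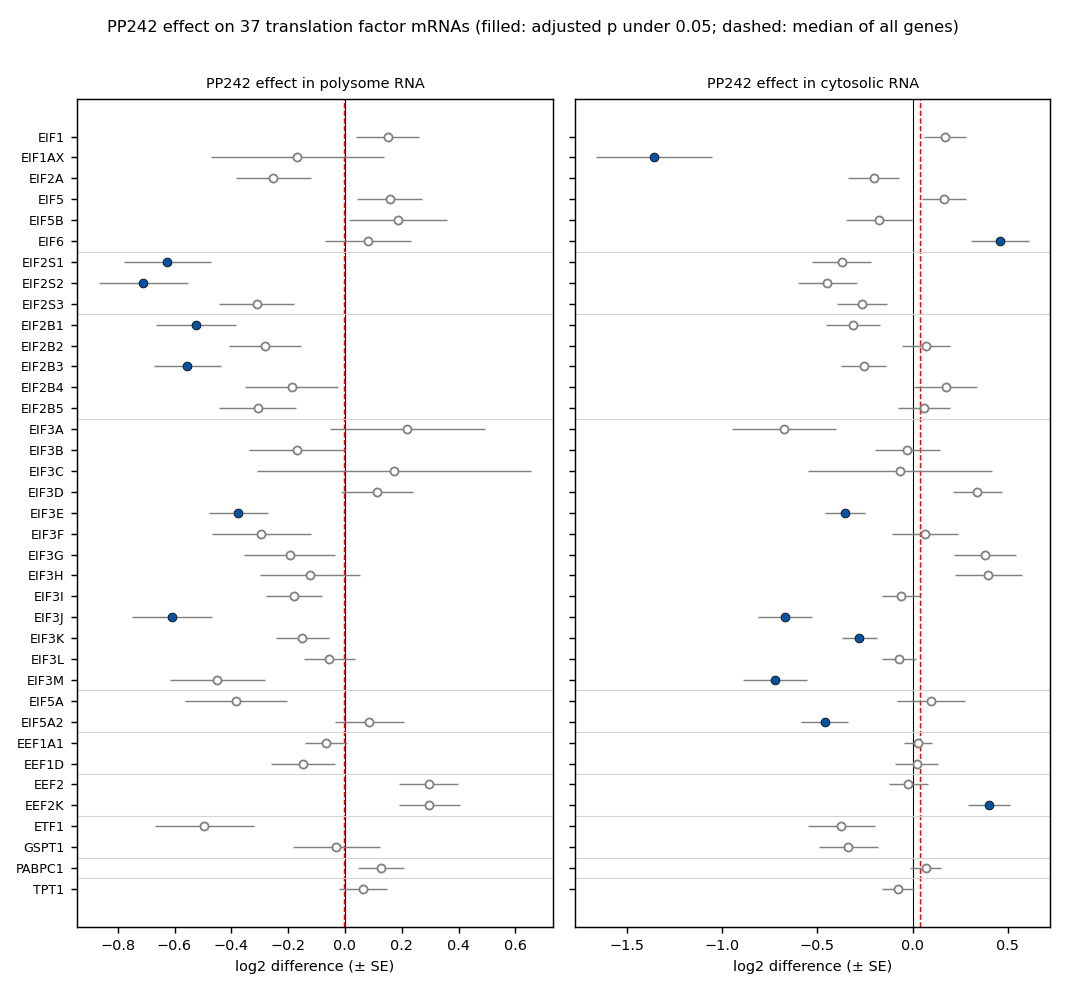
Difference between PP242 and vehicle on the log2 scale for the 37 measured translation factor mRNAs, in polysome RNA (left) and cytosolic RNA (right), with 4 arrays per group. Points are differences of group means, bars are ± 1 SE, filled points are called at an adjusted p under 0.05, grey lines separate the roles and the dashed line is the median over all genes. In polysome RNA the 6 filled points all lie left of 0, and the 3 eIF2 and 5 eIF2B points are all negative.

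In cytosolic RNA 8 of 37 members were called (21.6%), 2 higher (EIF6 and EEF2K) and 6 lower (EIF1AX, EIF3E, EIF3J, EIF3K, EIF3M and EIF5A2), beside 16.5% of all genes (8.54% higher and 7.91% lower). The median difference was -0.067 over the members and 0.04 over all genes. In the main fit only EIF3E and EIF3J were called in both pools. Being called in 1 pool and not in the other does not show that the pools differ. That difference is tested further on as polysome association. Scaling moved the split of the cytosolic calls to 5 higher and 4 lower with quantile and 5 and 5 with cyclic loess scaling. With the replicate number as a block, 10 members were called in polysome RNA (2 higher, 8 lower, beside 20.3% of all genes) and 14 in cytosolic RNA (4 higher, 10 lower, beside 24.9% of all genes). EIF2S1, EIF2S2, EIF2B1, EIF3M and EEF2K were then also called in both pools.

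The eIF2 subunits had the lowest polysome median of the roles compared. EIF2S1 encodes the alpha subunit, the one that stress kinases phosphorylate. In polysome RNA it read 10.97, 11.14, 11.53 and 11.39 on the vehicle arrays and 10.46, 10.47, 10.73 and 10.87 on the PP242 arrays (replicates 1 to 4 in order, here and below). Every PP242 array lay below every vehicle array, with means of 11.26 ± 0.25 and 10.63 ± 0.20 (SD, n = 4). The difference was -0.63 ± 0.15 (SE; 0.648 times the vehicle level), with an adjusted p of 0.00952, and the call was lost without replicate number 2 (adjusted p = 0.0682) or 3 (0.0549). In cytosolic RNA it read 10.41, 10.38, 10.78 and 10.76 on the vehicle arrays and 9.92, 10.29, 10.11 and 10.52 on the PP242 arrays. These groups overlapped, since PP242 array 4 was above vehicle arrays 1 and 2, and the difference of -0.37 ± 0.15 did not pass (adjusted p = 0.11); it passed with the replicate block (adjusted p = 0.0105) and without cytosolic PP242 arrays 2 and 4 (-0.57, adjusted p = 0.0441). The other 2 probe sets of EIF2S1 differed by -0.768 and -0.767 in polysome RNA (adjusted p over all probe sets 0.000365 and 0.000295) and by -0.555 and -0.56 in cytosolic RNA (0.00503 and 0.00403), so in the cytosol the call depended on the probe set.

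EIF2S2 encodes the beta subunit, which contacts eIF5 and eIF2B. Its polysome values were 11.18, 11.36, 11.48 and 11.46 on the vehicle arrays and 10.65, 10.96, 10.36 and 10.67 on the PP242 arrays. Again the highest PP242 array was below the lowest vehicle array, and the group means were 11.37 ± 0.14 and 10.66 ± 0.25 (SD, n = 4). This was the largest fall of any member on polysomes (0.611 times the vehicle level; -0.71 ± 0.16, adjusted p = 0.00413), and it remained called without any single replicate number. Cytosolic EIF2S2 read 11.40, 11.37, 11.85 and 11.85 on the vehicle arrays and 10.89, 11.33, 10.98 and 11.48 on the PP242 arrays, with 1 PP242 array above the lower vehicle arrays. There the difference missed the threshold (-0.45 ± 0.16, adjusted p = 0.0588), but passed with the replicate block (adjusted p = 0.0203) and without cytosolic PP242 arrays 2 and 4 (-0.68, adjusted p = 0.014). EIF2S3 encodes the gamma subunit, which binds GTP and the initiator tRNA. Its polysome values of 9.87, 10.09, 10.21 and 10.37 on the vehicle arrays and 9.77, 9.70, 9.78 and 10.05 on the PP242 arrays overlapped, and it was not called in polysome (-0.31 ± 0.13, adjusted p = 0.149) or cytosolic RNA (-0.27 ± 0.13, adjusted p = 0.183; -0.058 without cytosolic PP242 arrays 2 and 4). Of its 3 probe sets, 1 gave a polysome difference of -0.742 (adjusted p over all probe sets 0.00558), while the other 2 gave -0.31 and -0.273. On polysomes EIF2S3 passed, lower, with probe-set means (-0.442, adjusted p = 0.00579) and with array weights (-0.349, adjusted p = 0.0322).

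**Figure D2:**
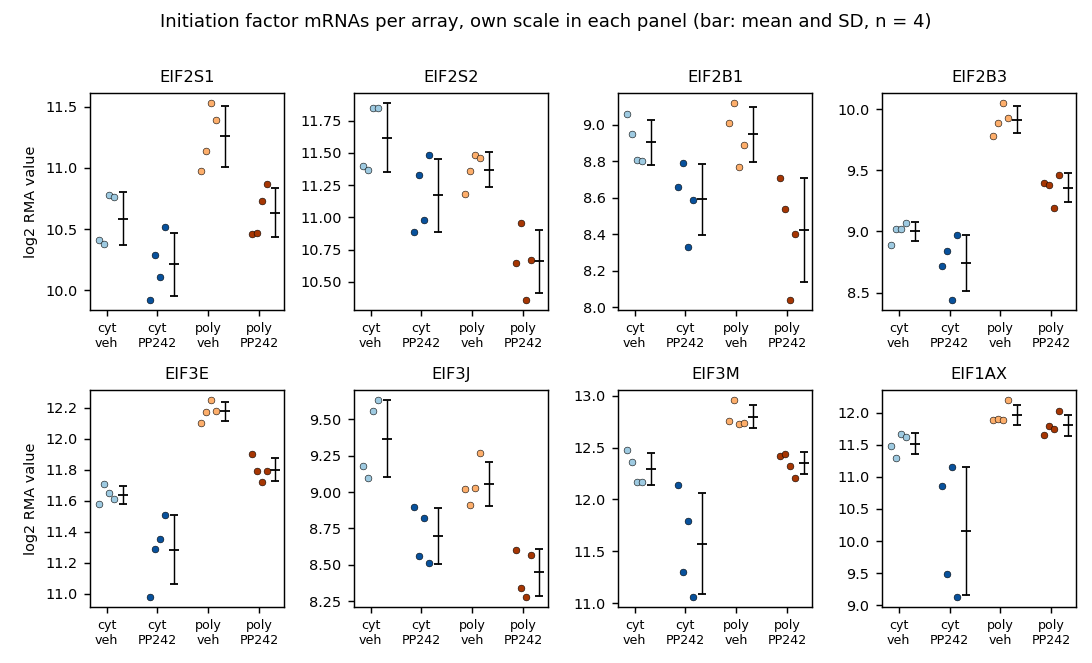
RMA log2 values of 8 initiation factor mRNAs on each array, by group (cyt, cytosolic; poly, polysome; veh, vehicle), each panel on its own scale that does not start at 0. Points are arrays, ordered by replicate number within a group, and the bar is the mean ± SD of 4 arrays. For EIF2S1, EIF2S2, EIF2B1, EIF2B3, EIF3E and EIF3J the polysome PP242 points all lie below the polysome vehicle points, and for EIF1AX cytosolic PP242 arrays 2 and 4 lie far below the other arrays.

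All 5 eIF2B subunits had negative differences in polysome RNA, of which 2 were called, beside 13.4% of all genes. EIF2B1 encodes the alpha subunit of the regulatory part, which senses phosphorylated eIF2. On polysomes it read 9.01, 9.12, 8.77 and 8.89 on the vehicle arrays and 8.71, 8.54, 8.04 and 8.40 on the PP242 arrays, and the groups did not overlap. The fall of -0.53 ± 0.14 (0.695 times the vehicle level) had an adjusted p of 0.0168 and was not called without replicate number 2 (adjusted p = 0.0951), 4 (0.0848) or with quantile scaling (0.0509). In the cytosol it read 9.06, 8.95, 8.81 and 8.80 on the vehicle arrays and 8.66, 8.79, 8.33 and 8.59 on the PP242 arrays. Those groups did not overlap either, narrowly, and the difference passed only with the replicate block (adjusted p = 0.024, against 0.145 without it). EIF2B3 encodes the gamma subunit of the catalytic part. Its polysome values were 9.78, 9.89, 10.05 and 9.93 on the vehicle arrays and 9.40, 9.38, 9.19 and 9.46 on the PP242 arrays, the widest gap between groups within eIF2B. It fell by 0.56 ± 0.12 on the log2 scale (0.681 times the vehicle level, adjusted p = 0.00304) and was called without any single replicate number.

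The other eIF2B subunits did not pass in polysome RNA in the main fit. EIF2B5, the catalytic epsilon subunit, read 9.14, 9.35, 9.45 and 9.33 on the vehicle arrays and 9.01, 9, 8.99 and 9.04 on the PP242 arrays and EIF2B2, the beta subunit, read 8.41, 8.61, 8.45 and 8.45 on the vehicle arrays and 8.25, 8.35, 7.96 and 8.24 on the PP242 arrays. Both showed PP242 arrays entirely below the vehicle arrays, with differences of -0.31 ± 0.14 (adjusted p = 0.166) and -0.28 ± 0.13 (adjusted p = 0.18). EIF2B5 passed, lower, without cytosolic PP242 arrays 2 and 4 (adjusted p = 0.0227), with probe-set means (0.00855) and with array weights (0.0373). EIF2B4, the delta subunit and the smallest difference of the group, read 10.00, 10.15, 10.45 and 10.31 on the vehicle arrays and 10.03, 10.05, 10.10 and 9.98 on the PP242 arrays and overlapped (-0.19 ± 0.16, adjusted p = 0.58). In cytosolic RNA none of the 5 was called, 3 differences were positive and 2 negative, and their median was 0.06. That median turned to -0.19 without cytosolic PP242 arrays 2 and 4, which were the highest PP242 arrays for EIF2B2, EIF2B4 and EIF2B5, and EIF2B3 was then called (-0.42, adjusted p = 0.0314, against -0.26 ± 0.12, adjusted p = 0.15 with all arrays).

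The 13 subunits of eIF3, the scaffold that holds the small subunit open for scanning and recruits the mRNA, did not move together. In polysome RNA 2 fell (15.4%, beside 13.4% of all genes called) and 11 were not called, with 10 negative and 3 positive differences. In cytosolic RNA 4 fell (30.8%, beside 16.5% of all genes called) and 9 were not called. EIF3E, a subunit of the PCI/MPN scaffold of eIF3, on polysomes read 12.10, 12.17, 12.25 and 12.18 on the vehicle arrays and 11.90, 11.79, 11.72 and 11.79 on the PP242 arrays. In the cytosol it read 11.58, 11.71, 11.65 and 11.61 on the vehicle arrays and 10.98, 11.29, 11.35 and 11.51 on the PP242 arrays. In both pools each PP242 array lay below each vehicle array. The difference was -0.38 ± 0.10, adjusted p = 0.0192 on polysomes and -0.36 ± 0.10, adjusted p = 0.0236 in the cytosol. The polysome call was lost without replicate number 2 (adjusted p = 0.122), 3 (0.139), 4 (0.0746), with quantile scaling (0.0767), with cyclic loess (0.115) or with probe-set means (0.0719). The cytosolic call was lost without replicate number 1 (adjusted p = 0.118), 2 (0.166), 3 (0.0512), with quantile scaling (0.0503), with probe-set means (0.202) or with the compared arrays alone (0.105), though it held without cytosolic PP242 arrays 2 and 4 (-0.47, adjusted p = 0.00634).

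EIF3J, the loosely bound subunit that sits in the decoding site, was lowered in both pools. Its polysome values were 9.02, 8.91, 9.03 and 9.27 on the vehicle arrays and 8.60, 8.34, 8.28 and 8.57 on the PP242 arrays. Its cytosolic values were 9.18, 9.10, 9.56 and 9.63 on the vehicle arrays and 8.90, 8.56, 8.82 and 8.51 on the PP242 arrays. Neither pool showed any overlap between treatments. It fell to 0.655 times the vehicle level on polysomes (-0.61 ± 0.14, adjusted p = 0.00595) and to 0.628 times in the cytosol (-0.67 ± 0.14, adjusted p = 0.00276). The polysome call held without any single replicate number, and the cytosolic call was lost without number 4 (-0.52, adjusted p = 0.0533) and without cytosolic PP242 arrays 2 and 4 (-0.51, adjusted p = 0.0542).

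EIF3M and EIF3K, 2 further subunits of the scaffold and both with a pyrimidine run at the annotated start shown above, fell in the cytosol. EIF3M in cytosolic RNA read 12.48, 12.36, 12.17 and 12.17 on the vehicle arrays and 12.14, 11.30, 11.79 and 11.06 on the PP242 arrays, with every PP242 array below every vehicle array and arrays 2 and 4 the lowest. The difference was -0.72 ± 0.17, adjusted p = 0.00549, against -0.33, adjusted p = 0.106 without those 2 arrays, and the call was also lost without replicate number 2 (adjusted p = 0.092). On polysomes EIF3M read 12.76, 12.96, 12.73 and 12.74 on the vehicle arrays and 12.42, 12.44, 12.32 and 12.21 on the PP242 arrays. Here too the groups did not overlap, and the difference of -0.45 ± 0.17 was not called (adjusted p = 0.0883) and passed under 5 of the 15 alternatives, among them the replicate block (adjusted p = 0.0275). EIF3K in the cytosol read 11.33, 11.36, 11.21 and 11.26 on the vehicle arrays and 11.23, 11.02, 10.90 and 10.89 on the PP242 arrays, where 1 PP242 array was above the lowest vehicle array. Its difference of -0.28 ± 0.093 was just past the threshold (adjusted p = 0.0463) and was lost without replicate number 1 (adjusted p = 0.0574), 2 (0.234), 3 (0.0938), 4 (0.234), with quantile scaling (0.131), with cyclic loess (0.137), with probe-set means (0.727), with the compared arrays alone (0.157) or with array weights (0.183), and without cytosolic PP242 arrays 2 and 4 (-0.23, adjusted p = 0.194). The other 3 probe sets of EIF3K gave cytosolic differences between -0.02 and 0.078.

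The remaining 9 eIF3 subunits were not called in either pool in the main fit. EIF3A, the largest subunit, had the highest polysome difference of the group (0.22 ± 0.27, adjusted p = 0.727), with 10.84, 11.11, 11.28 and 11.38 on the vehicle arrays and 11.16, 11.44, 11.48 and 11.41 on the PP242 arrays, which overlapped. In the cytosol it read 10.68, 10.56, 11.05 and 11.02 on the vehicle arrays and 10.63, 9.54, 11.09 and 9.34 on the PP242 arrays, where PP242 arrays 2 and 4 were more than 1 log2 unit below the other 6. The cytosolic difference of -0.68 ± 0.27 (adjusted p = 0.101) became 0.032, adjusted p = 0.957 without those arrays. It passed with all arrays and the replicate block (adjusted p = 0.0476) and without replicate number 3 (-0.917, adjusted p = 0.0234). EIF3D, the subunit with cap-binding activity, differed by 0.34 ± 0.13, adjusted p = 0.0755 in the cytosol and EIF3H, an MPN-domain subunit, by 0.40 ± 0.18, adjusted p = 0.138, and both passed, higher, with the block (adjusted p = 0.0192 and 0.0327). Without cytosolic PP242 arrays 2 and 4 these differences were 0.17 and 0.012. Cytosolic EIF3G (0.38 ± 0.16, adjusted p = 0.119) passed, higher, without replicate number 3 (adjusted p = 0.0182), with quantile (0.0406) and with cyclic loess scaling (0.0281). EIF3D and EIF3H passed, higher, in those settings too. The EIF3G difference was 0.003 without cytosolic PP242 arrays 2 and 4. EIF3B, EIF3F, EIF3G, EIF3I and EIF3L had polysome differences between -0.30 (EIF3F) and -0.055 (EIF3L). EIF3C was represented by a dim probe set with a mean of 4.66, close to the array median, and its values ran from 3.67 to 6.29 over the 16 arrays.

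Of the 6 factors of start-site selection and subunit joining, 1 fell and 1 rose, both in cytosolic RNA, where 16.5% of all genes were called. EIF1AX encodes eIF1A, which keeps the scanning subunit open. Cytosolic EIF1AX read 11.48, 11.30, 11.66 and 11.62 on the vehicle arrays and 10.86, 9.49, 11.15 and 9.13 on the PP242 arrays. The PP242 arrays were all below the vehicle arrays but were far apart, arrays 2 and 4 lying more than 1 log2 unit below arrays 1 and 3. The difference was the largest of any member in the cytosol (0.39 times the vehicle level; -1.36 ± 0.30, adjusted p = 0.00425). Without arrays 2 and 4 it was -0.51, adjusted p = 0.0233, still called, and without replicate number 2 or 4 it was -1.21, adjusted p = 0.0585 and -0.98, adjusted p = 0.0581. On polysomes EIF1AX read 11.89, 11.90, 11.88 and 12.20 on the vehicle arrays and 11.65, 11.79, 11.74 and 12.02 on the PP242 arrays, overlapping, with no call (-0.17 ± 0.30, adjusted p = 0.831). That SE includes the spread of the cytosolic PP242 arrays. Without cytosolic PP242 arrays 2 and 4 the same polysome difference had an SE of 0.11 and was still not called (adjusted p = 0.358). The other 3 probe sets of EIF1AX differed on polysomes by -0.4, -0.755 and -0.767, the last 2 called (adjusted p over all probe sets 0.00883 and 0.000851), so the polysome result depends on the probe set.

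EIF6 encodes the factor that keeps the large subunit from joining too early. In the cytosol it read 9.45, 9.43, 9.64 and 9.66 on the vehicle arrays and 9.86, 10.22, 9.55 and 10.38 on the PP242 arrays, where PP242 array 3 fell among the vehicle arrays. The rise of 0.46 ± 0.15 was just past the threshold (adjusted p = 0.0458) and was 0.16, adjusted p = 0.598 without cytosolic PP242 arrays 2 and 4. It was also lost without replicate number 1 (adjusted p = 0.115), 2 (0.314), 4 (0.206), with centred arrays (0.0798), with the compared arrays alone (0.132) or with array weights (0.156). EIF5, which activates GTP hydrolysis by eIF2, EIF1, the gatekeeper of start-codon choice, EIF5B, the GTPase of subunit joining, and EIF2A, proposed as an alternative carrier of initiator tRNA, were not called in either pool. EIF5B had the highest polysome difference of these (0.19 ± 0.17, adjusted p = 0.6), at 11.69, 11.94, 11.82 and 11.60 on the vehicle arrays and 11.91, 12.08, 12.01 and 11.80 on the PP242 arrays, with overlap. EIF2A had the lowest (-0.25 ± 0.13, adjusted p = 0.27), at 9.18, 9.29, 8.99 and 9.17 on the vehicle arrays and 8.97, 8.99, 8.82 and 8.84 on the PP242 arrays, where array 3 of the vehicle group touched the PP242 range. EIF1 passed, higher, on polysomes with cyclic loess scaling (0.31, adjusted p = 0.0473).

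In the main fit no measured elongation factor was called on polysomes, and EIF5A2 alone fell in the cytosol. EEF1A1 encodes eEF1A, which brings aminoacyl-tRNA to the ribosome. On polysomes it read 14.48, 14.48, 14.51 and 14.49 on the vehicle arrays and 14.48, 14.48, 14.34 and 14.39 on the PP242 arrays, which overlapped (-0.068 ± 0.074, adjusted p = 0.68), near the top of the scale. EEF1D, the delta subunit of its exchange factor, on polysomes read 12.81, 12.79, 13.00 and 12.99 on the vehicle arrays and 12.75, 12.61, 12.87 and 12.77 on the PP242 arrays. The groups overlapped (-0.15 ± 0.11, adjusted p = 0.496). In the cytosol EEF1A1 and EEF1D differed by 0.028 ± 0.074 and 0.020 ± 0.11 (adjusted p = 0.839 and 0.926).

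EEF2 encodes eEF2, the translocase, and EEF2K the kinase that inactivates it and is itself held back by signalling through mTOR. Polysomal EEF2 read 14.01, 13.98, 13.94 and 13.89 on the vehicle arrays and 14.30, 14.31, 14.21 and 14.18 on the PP242 arrays. All 4 PP242 arrays were above all 4 vehicle arrays, with the highest difference of the elongation factors (0.30 ± 0.10). The difference was not called (adjusted p = 0.0687) but passed under 8 of the 15 alternatives, among them the replicate block (adjusted p = 0.023), quantile (0.0184) and loess scaling (0.0185) and the fit without cytosolic PP242 arrays 2 and 4 (0.00174). It did not pass when any 1 replicate number was left out. Cytosolic EEF2 read 13.66, 13.64, 13.72 and 13.60 on the vehicle arrays and 13.87, 13.47, 13.85 and 13.34 on the PP242 arrays, where PP242 arrays 1 and 3 were above and arrays 2 and 4 below the vehicle range (-0.023 ± 0.10, adjusted p = 0.908; 0.21, adjusted p = 0.0854 without arrays 2 and 4). A second probe set of EEF2 gave 0.282 on polysomes and 0.425 in the cytosol (adjusted p over all probe sets 0.086 and 0.00781), so the cytosolic difference depends on the probe set.

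EEF2K rose in cytosolic RNA, from 8.48, 8.52, 8.50 and 8.44 to 8.95, 8.94, 8.78 and 8.87. All PP242 arrays were above all vehicle arrays, and the mean reached 1.32 times the vehicle level (0.40 ± 0.11, adjusted p = 0.0154). It was not called without replicate number 1 (adjusted p = 0.0798), 2 (0.0761), 4 (0.098) or with probe-set means (0.558), or without cytosolic PP242 arrays 2 and 4 (0.38, adjusted p = 0.0653). On polysomes EEF2K read 7.98, 8.37, 8.06 and 8.12 on the vehicle arrays and 8.28, 8.50, 8.37 and 8.57 on the PP242 arrays. Vehicle array 2 reached into the PP242 range, and the difference of 0.30 ± 0.11 was not called (adjusted p = 0.0808) and passed under 3 of the 15 alternatives, among them the block (adjusted p = 0.0344). The dimmer probe set of EEF2K went the other way in both pools, with -0.105 and -0.232, neither called.

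EIF5A and its paralog EIF5A2 encode eIF5A, the hypusine-bearing factor that helps stalled ribosomes through difficult peptide bonds. EIF5A2 fell in the cytosol, where it read 5.52, 5.83, 5.76 and 5.81 on the vehicle arrays and 5.26, 5.52, 5.27 and 5.02 on the PP242 arrays. Vehicle array 1 and PP242 array 2 had the same value, and the others did not overlap (-0.46 ± 0.12, adjusted p = 0.013; -0.47, adjusted p = 0.0288 without cytosolic PP242 arrays 2 and 4). The call was lost without replicate number 3 (adjusted p = 0.0623), 4 (0.116) or with probe-set means (0.0734). On polysomes EIF5A2 read 3.98, 4.22, 4.16 and 3.91 on the vehicle arrays and 4.13, 3.95, 4.19 and 4.34 on the PP242 arrays, below the array medians. EIF5A on polysomes read 9.71, 9.43, 9.40 and 9.63 on the vehicle arrays and 9.07, 9.03, 9.10 and 9.43 on the PP242 arrays, and PP242 array 4 reached into the vehicle range. That difference was not called in the main fit (-0.39 ± 0.18, adjusted p = 0.194). It passed without cytosolic PP242 arrays 2 and 4 (adjusted p = 0.0385), with probe-set means (-0.632, adjusted p = 0.02) and with the compared arrays alone (0.0488). A second probe set of EIF5A gave -1.148 (adjusted p over all probe sets 0.0199) and the third -0.363.

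Termination uses eRF1 (ETF1), which reads the stop codons, and the GTPase eRF3a (GSPT1). ETF1 on polysomes read 9.64, 9.83, 10.37 and 10.41 on the vehicle arrays and 9.35, 9.35, 9.72 and 9.85 on the PP242 arrays, where vehicle arrays 1 and 2 lay in the PP242 range. Between same-numbered arrays the polysome differences of ETF1 were -0.29, -0.48, -0.65 and -0.56. Its difference of -0.50 ± 0.17 was not called (adjusted p = 0.0703) and passed under 3 of the 15 alternatives, among them the replicate block (adjusted p = 0.0143). GSPT1 read 11.12, 11.24, 11.26 and 11.37 on the vehicle arrays and 11.08, 11.18, 11.25 and 11.36 on the PP242 arrays with a difference close to 0 (-0.030 ± 0.15, adjusted p = 0.949). In the cytosol they differed by -0.38 ± 0.17 and -0.34 ± 0.15 and neither was called (adjusted p = 0.155 and 0.148). Without cytosolic PP242 arrays 2 and 4 these differences were -0.57, adjusted p = 0.0945 for ETF1 and -0.040, adjusted p = 0.922 for GSPT1. Cytosolic GSPT1 passed, lower, with probe-set means (-0.307, adjusted p = 0.0339).

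Of the 10 members with a TOP motif in the literature, 8 were measured (EEF1A1, EEF1D, EEF2, EIF3E, EIF3F, EIF3H, PABPC1 and TPT1). In each pool 1 of the 8 (12.5%), EIF3E, fell, beside 13.4% of all genes called on polysomes and 16.5% in the cytosol. The median difference of the 8 was -0.095 on polysomes and 0.024 in the cytosol, against -0.18 and -0.18 for the other 29 members and -0.005 and 0.04 over all genes. The polysome median changed sign with scaling (0.058 with cyclic loess). PABPC1, the cytoplasmic poly(A)-binding protein, on polysomes read 12.97, 13.05, 13.23 and 13.10 on the vehicle arrays and 13.14, 13.26, 13.25 and 13.21 on the PP242 arrays. The groups overlapped, with PP242 the higher mean (0.13 ± 0.080, adjusted p = 0.382). The PABPC1 difference passed, higher, with cyclic loess scaling (0.297, adjusted p = 0.0154). TPT1, the translationally controlled tumor protein, read 13.66, 13.67, 13.73 and 13.73 on the vehicle arrays and 13.80, 13.84, 13.72 and 13.68 on the PP242 arrays (0.063 ± 0.085, adjusted p = 0.755), and 4 further probe sets of TPT1 differed by -0.115 to 0.012. EIF3F read 11.91, 11.99, 11.80 and 12.00 on the vehicle arrays and 11.81, 11.82, 11.18 and 11.71 on the PP242 arrays, where PP242 array 3 was the lowest, and EIF3H read 10.55, 10.76, 10.53 and 10.53 on the vehicle arrays and 10.62, 10.74, 10.16 and 10.36 on the PP242 arrays. Both overlapped between treatments (-0.30 ± 0.17, adjusted p = 0.343 and -0.12 ± 0.18, adjusted p = 0.778).

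**Figure D3:**
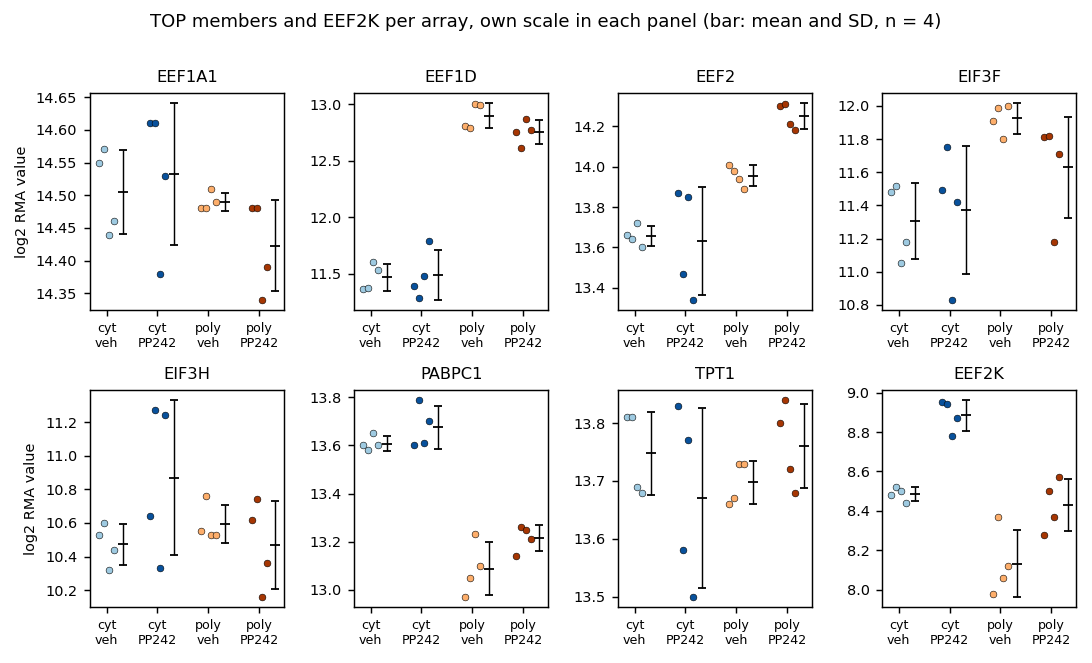
RMA log2 values on each array of 7 members with a TOP motif in the literature and of EEF2K, by group, each panel on its own scale that does not start at 0. Points are arrays in order of replicate number and bars are the mean ± SD of 4 arrays. Polysome PP242 points lie above polysome vehicle for EEF2 and overlap it for EEF1D, PABPC1, TPT1, EIF3F and EIF3H, and the whole EEF1A1 panel spans 14.34 to 14.61.

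Grouped by the start pattern, the 9 measured members with a C and pyrimidine run at an annotated start had 0 calls on polysomes and a median difference of -0.15, and the 20 with another start had 4 lower and a median of -0.18. In the cytosol the 9 had 2 lower (EIF3K and EIF3M) with a median of -0.078, and the 20 had 2 higher and 3 lower with a median of -0.065. Over all genes 13.4% were called on polysomes and 16.5% in the cytosol. The 8 measured members missing from the promoter table are in neither set: EIF2S2, EIF3A, EIF3E, EIF3G, EIF3H, EIF3L, EEF1D and PABPC1. Among them EIF2S2 and EIF3E were called lower on polysomes and EIF3E in the cytosol, so the counts depend on which starts were listed. The 2 sets were not tested against each other.

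Polysome association, the change under PP242 of the polysome minus the cytosolic log2 value, asks whether an mRNA moved on or off polysomes beyond its change in the cytosol. It too is relative to the other mRNAs of each pool. With limma 0 of 37 members were called, and 0 of 19775 genes (0% called, also with the replicate block). At an unadjusted p under 0.05 there were 5 members and 1750 genes (8.85%), and the smallest adjusted p was 0.558 among the members. The members' median was -0.095, against -0.04 over all genes. All 3 eIF2 and all 5 eIF2B subunits had negative values, with medians of -0.25 and -0.35, and the eIF3 and elongation medians were -0.02 and -0.095. Without cytosolic PP242 arrays 2 and 4 the eIF2 and eIF2B medians were -0.057 and -0.12. The 2 highest and 2 lowest values belonged to mRNAs for which cytosolic PP242 arrays 2 and 4 lay away from arrays 1 and 3: EIF1AX (1.19 ± 0.43, adjusted p = 0.558) and EIF3A (0.90 ± 0.39, adjusted p = 0.558) upward, and EIF3G (-0.58 ± 0.23, adjusted p = 0.558) and EIF3H (-0.52 ± 0.25, adjusted p = 0.558) downward. Without those 2 arrays they were 0.34, 0.19, -0.20 and -0.14. EEF2 differed by 0.32 ± 0.15, adjusted p = 0.558 (0.090 without those arrays). A regression of polysome on cytosolic values, which called 689 genes, called EEF2 as the only member (0.297, adjusted p = 0.0254). That estimate was close to its plain polysome difference of 0.295. The second probe set of EEF2 had the opposite sign with limma (-0.143, adjusted p over all probe sets 0.765), so the EEF2 value depends on the probe set.

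**Figure D4:**
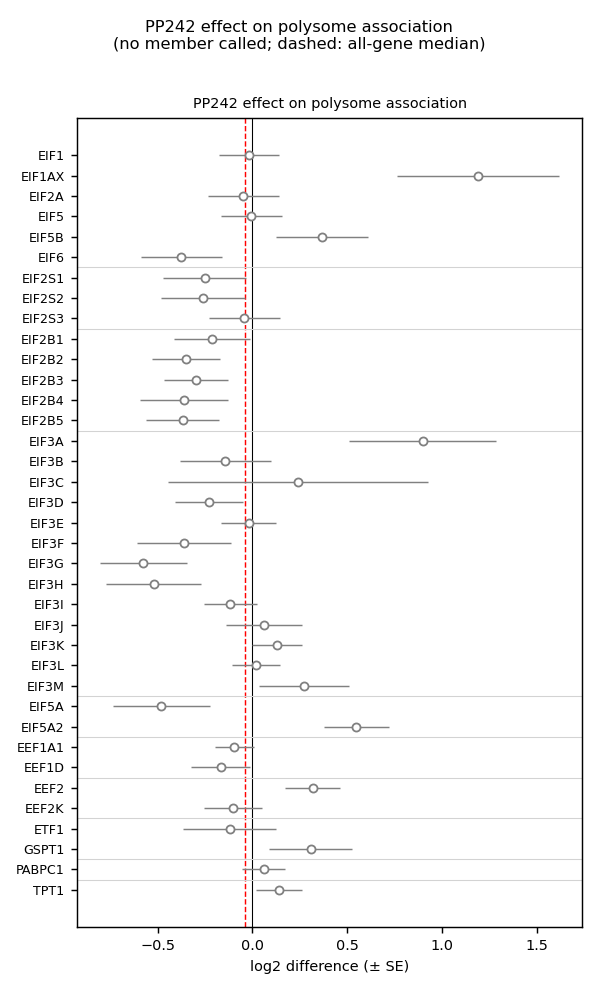
Change in polysome association under PP242 (polysome effect minus cytosolic effect, log2 scale) for the 37 measured members, from 4 arrays in each of the 4 groups. Points are estimates, bars ± 1 SE, and the dashed line is the median over all genes. No member is called; the eIF2 and eIF2B points lie left of 0 and the widest bars belong to EIF1AX, EIF3A and EIF3C.

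In vehicle-treated cells 24 of 37 members differed between polysome and cytosolic RNA (64.9%, 19 higher and 5 lower on polysomes), beside 52.7% of all genes (16.8% higher and 35.9% lower). Because array medians differ between the pools, a single value says only how an mRNA stands relative to the others in its pool: the all-gene median was -0.16 as deposited, 0.029 after quantile, 0.017 after cyclic loess scaling and 0.17 with centred arrays, and the split of called members moved from 19 and 5 to 12 and 9, 12 and 11, and 26 and 1. The members' median of 0.45 was 0.60 above the all-gene median. By group the medians were 0.91 for eIF2B, 0.62 for eIF3, -0.25 for eIF2 and -0.015 for the elongation factors; the first 2 kept their sign under all scalings tried, and the eIF2 and elongation medians were 0.083 and 0.32 with centred arrays.

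EEF1D stood highest, at 12.81, 12.79, 13.00 and 12.99 on polysomes against 11.36, 11.37, 11.60 and 11.53 in the cytosol (1.43 ± 0.11, adjusted p = 2.12e-08). The eIF2B subunits EIF2B4 and EIF2B5 (1.39 ± 0.16 and 1.05 ± 0.14), EIF3D (1.21 ± 0.13), EIF3G (1.15 ± 0.16), EIF3K (1.02 ± 0.093) and EIF6 (1.03 ± 0.15) followed, all called and with no overlap between pools. The 5 lower members were EIF5A2, PABPC1, ETF1, EEF2K and EIF2S3. PABPC1 read 12.97, 13.05, 13.23 and 13.10 on polysomes against 13.60, 13.58, 13.65 and 13.60 in the cytosol (-0.52 ± 0.080, adjusted p = 3.02e-05), and ETF1 differed by -0.53 ± 0.17, adjusted p = 0.0159. EIF5A2 had the lowest value (-1.66 ± 0.12, adjusted p = 1.25e-08), from polysome values of 3.98, 4.22, 4.16 and 3.91, under the array medians. Within the eIF2 complex EIF2S1 was higher on polysomes (0.68 ± 0.15, adjusted p = 0.00129), EIF2S3 lower (-0.32 ± 0.13, adjusted p = 0.048; 0.007 with centred arrays) and EIF2S2 not called (-0.25 ± 0.16, adjusted p = 0.195). The EIF2S3 call was lost without replicate number 1 (adjusted p = 0.197), 2 (0.148), 3 (0.0804) or with centred arrays (0.969). The ETF1 call was lost without replicate number 1 (adjusted p = 0.0875), 2 (0.0651), with centred arrays (0.381) or with probe-set means (0.38). The PABPC1 call was lost with centred arrays (adjusted p = 0.0756) or with probe-set means (0.0711), and the EEF2K call was lost without replicate number 1 (adjusted p = 0.0769), 3 (0.055) or with centred arrays (0.876). The EIF2S1 call was lost with quantile scaling (adjusted p = 0.0821), with cyclic loess (0.0615) or with probe-set means (0.181). EEF1A1 (-0.015 ± 0.074, adjusted p = 0.879) and TPT1 (-0.050 ± 0.085, adjusted p = 0.643) did not pass. With the replicate block 26 members were called (59.2% of all genes).

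**Figure D5:**
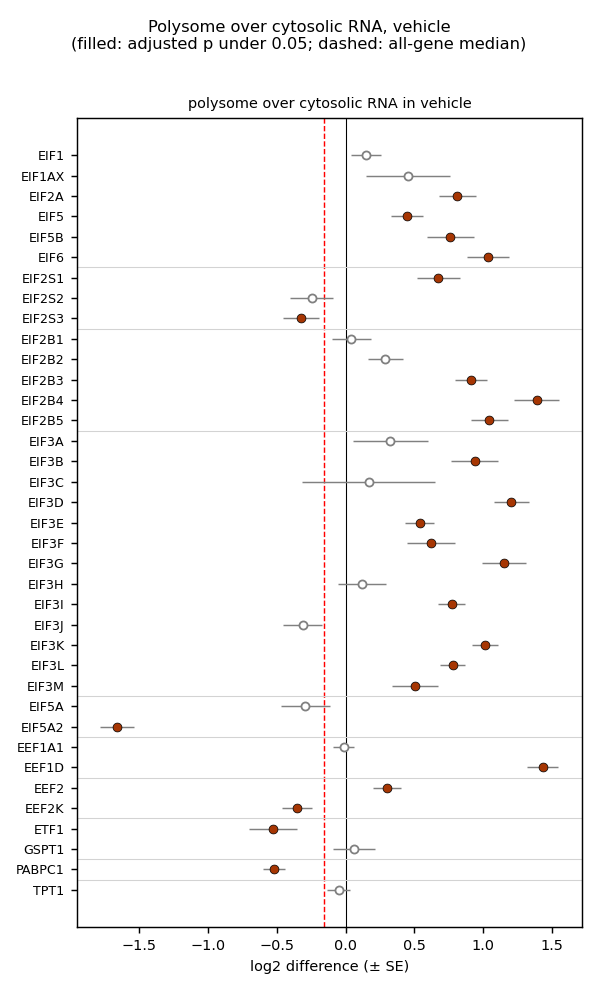
Difference between polysome and cytosolic RNA in vehicle-treated cells (log2 scale) for the 37 measured members, with 4 arrays per pool. Points are differences of group means, bars ± 1 SE, filled points are called at an adjusted p under 0.05 and the dashed line is the all-gene median of -0.158, from which values should be read. The eIF2B and most eIF3 points lie right of both lines, and EIF5A2, ETF1, PABPC1, EEF2K and EIF2S3 are the filled points on the left.

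The factors that work on these members were read from lists of their own. Of the 6 genes for eIF2 kinases and phosphatase subunits, 1 fell on polysomes, and in the cytosol 1 rose and 3 fell; for these and the lists that follow, the shares called over all genes were 13.4% on polysomes and 16.5% in the cytosol. EIF2AK2, the double-stranded RNA kinase PKR, fell in both pools (-0.68 ± 0.19, adjusted p = 0.0227 on polysomes and -1.04 ± 0.19, adjusted p = 0.000963 in the cytosol), and EIF2AK3, the endoplasmic reticulum stress kinase PERK, fell in the cytosol (-0.85 ± 0.19, adjusted p = 0.00454). The 2 subunits that direct phosphatase 1 to eIF2 went opposite ways there: the stress-induced PPP1R15A rose (0.59 ± 0.17, adjusted p = 0.0205) and the constitutive PPP1R15B fell (-0.67 ± 0.18, adjusted p = 0.0159). Neither passed without cytosolic PP242 arrays 2 and 4 (0.43, adjusted p = 0.198 and -0.41, adjusted p = 0.175). The PPP1R15A call was lost without replicate number 2 (adjusted p = 0.183), 4 (0.113) or with the compared arrays alone (0.0595), the PPP1R15B call without replicate number 2 (adjusted p = 0.0676) or 4 (0.0942), and the polysomal EIF2AK2 call without replicate number 1 (adjusted p = 0.115), 2 (0.133), with quantile scaling (0.0537) or with probe-set means (0.153).

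Of 7 measured genes of eIF4F and its partners, 2 fell on polysomes and 1 in the cytosol. The cap-binding protein EIF4E fell in both (-0.60 ± 0.14, adjusted p = 0.00521 and -0.92 ± 0.14, adjusted p = 0.000104), and EIF4H, a helper of the helicase, fell on polysomes (-0.40 ± 0.13, adjusted p = 0.0395). Among 7 genes for ribosome recycling and rescue, HBS1L (-0.66 ± 0.14, adjusted p = 0.00359 on polysomes; -0.48 ± 0.14, adjusted p = 0.0278 in the cytosol) and MCTS1 (-0.54 ± 0.14, adjusted p = 0.0149; -0.43 ± 0.14, adjusted p = 0.0465) fell in both pools, and ABCE1, which splits the ribosome after termination, fell in the cytosol (-0.72 ± 0.20, adjusted p = 0.016). Of the 2 hypusine enzymes DOHH fell on polysomes (-0.48 ± 0.14, adjusted p = 0.0321), of 6 measured diphthamide genes DPH5 rose in the cytosol (0.45 ± 0.11, adjusted p = 0.00899), and of 5 partners of poly(A)-binding protein LARP4 fell there (-0.77 ± 0.26, adjusted p = 0.047). Among 4 measured paralogs PABPC1L rose in both pools (1.21 ± 0.34, adjusted p = 0.0211 and 1.07 ± 0.34, adjusted p = 0.0364), and none of 8 mitochondrial translation factors was called in either pool.

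Several of these calls were lost under other settings. Where leaving out 1 replicate number ended a call of these genes, the difference was still 0.621 to 1.14 times the difference over all arrays (median 0.972). On polysomes the call for EIF4E was lost without replicate number 2 (adjusted p = 0.0532) or with probe-set means (0.427), EIF4H without replicate number 1 (adjusted p = 0.161), 2 (0.172), 3 (0.0986), with quantile scaling (0.112) or with cyclic loess (0.0819), and HBS1L with probe-set means (adjusted p = 0.17). The polysome call for MCTS1 was lost without replicate number 1 (adjusted p = 0.0798), 2 (0.095), with quantile scaling (0.0645) or with probe-set means (0.622), DOHH without replicate number 2 (adjusted p = 0.173), 3 (0.228), 4 (0.0514), with quantile scaling (0.0549) or with probe-set means (0.226), and PABPC1L without replicate number 1 (adjusted p = 0.114) or 2 (0.0882). In the cytosol the ABCE1 call was lost without replicate number 2 (adjusted p = 0.0711), 4 (0.105) or with the compared arrays alone (0.0659), and DPH5 without replicate number 1 (adjusted p = 0.0506), 2 (0.11) or 4 (0.0505). The cytosolic HBS1L call was lost without replicate number 1 (adjusted p = 0.176), 2 (0.117), 3 (0.0878) or with the compared arrays alone (0.0835), and MCTS1 without replicate number 1 (adjusted p = 0.101), 2 (0.136), 3 (0.105), 4 (0.115), with probe-set means (0.271), with the compared arrays alone (0.103) or with array weights (0.0531). The LARP4 call was lost without replicate number 1 (adjusted p = 0.0723), 2 (0.14), 4 (0.2), with cyclic loess (0.0535), with centred arrays (0.0511) or with the compared arrays alone (0.0782), and cytosolic PABPC1L without replicate number 1 (adjusted p = 0.0697), 2 (0.143), 4 (0.0906), with centred arrays (0.0547), with probe-set means (0.0529), with the compared arrays alone (0.0625) or with array weights (0.142). Without cytosolic PP242 arrays 2 and 4 the cytosolic calls for DPH5, ABCE1, LARP4 and PABPC1L were lost (adjusted p = 0.0653, 0.139, 0.156 and 0.0964). The cytosolic calls for EIF4E, EIF2AK2 and EIF2AK3 held without any single replicate number and without cytosolic PP242 arrays 2 and 4.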

How the data were processed

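Expression was measured on 16 Affymetrix arrays, 4 each of cytosolic and polysome RNA from MIA PaCa-2 cells given vehicle or PP242. The deposited values are log2 intensities summarised by RMA, per the submitters' processing notes, and the sources used here give neither its version nor whether the 2 pools were normalized apart. Of 54613 probe sets, 41091 carried 1 gene in the platform's annotation, 1801 several and 11721 were unnamed; only those with 1 gene were used, 1 per gene (highest mean), giving 19775 genes. Group means were fitted over all 16 arrays in limma 3.58.1 (R 4.3.3; lmFit, eBayes with an intensity trend), 4 contrasts were taken, and p-values were adjusted over all genes by Benjamini-Hochberg, with calls made below an adjusted p of 0.05. The steps were run on simulated data with differences planted in the polysome PP242 group alone. The simulated noise was independent between arrays, with 1 SD per gene over all groups. It had neither the wide cytosolic PP242 group nor deviations shared by same-numbered arrays, so it cannot show how calls behave under these. Per-array values are given for members called under PP242, for members with a TOP motif in the literature, and for the highest and lowest of each role. Members and lists were chosen with earlier results of these data known. Same-numbered arrays deviated together: the correlation of their deviations from the group means was above 0.1 in 16 of 16 pairs of groups sharing a pool or a treatment (0.164 to 0.51) and in 23 of 24 over all pairs of groups (lowest 0.027), so the numbers were taken to pair the samples. The main fit nevertheless has no such block, so its SEs and calls, and the overlaps between groups, do not use the pairing. A fit with the replicate number as a block is given where it changes a member's call under PP242, and between pools as a count only. Alternatives were other scalings, probe-set means, a filter on dim genes, array weights, single comparisons, a regression of polysome on cytosolic values, and replicates left out. Array intensities carry no count depth.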

Additional observations from a re-analysis of the deposited data

Results flagged for a closer look

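The value of 1 array stood far from the other 3 of its group for 5 of the 148 combinations of a member and a group, where chance gives about 1 in 20. EIF1AX read 12.2 on polysome vehicle array 4, against 11.88 to 11.9 on the others. EIF3C, measured by a dim probe set, read 6.29 on polysome PP242 array 3, with the nearest at 4.51. EIF3H read 10.76 and EIF3M 12.96 on polysome vehicle array 2, with the nearest at 10.55 and 12.76. EIF3L read 12.81 on polysome PP242 array 3, with the nearest at 12.74. None of the 5 lay on cytosolic PP242 arrays 2 or 4, where 2 arrays deviate together and neither is then far from the rest.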

How the results depend on the processing

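Leaving out each replicate number in turn gave 3 to 6 called members on polysomes, 2 to 9 in the cytosol and 20 to 23 between pools, and an eIF3 association median of -0.11 to 0.03. Where no count over all genes stands beside it, a member count under a setting is description and not a result about the members. The replicate block gave 10 polysome and 14 cytosolic calls (4020 and 4929 over all genes, against 2644 and 3253), and the member calls it changed under PP242 are given above. Without cytosolic PP242 arrays 2 and 4 there were 11 polysome calls, cytosolic calls over all genes fell to 1976, the cytosolic eIF2B median was -0.188 and the eIF2 and eIF2B association medians were -0.057 and -0.12. Replicate numbers 1 and 2 gave 2 polysome and 4 cytosolic calls, polysome medians of -0.06 (members) and 0.012 (TOP) and a pool difference of -0.115 for eIF2; numbers 3 and 4 gave 1 and 2 calls (1089 and 1058 over all genes, and 6421 between pools), a TOP association median of -0.192 and an eIF3 pool difference of 0.785. Array weights gave 12 polysome calls and a cytosolic eIF3 median of -0.207. Fitting the compared arrays alone gave 5 cytosolic calls (2069 over all genes). The regression gave 1 association call (689 over all genes) and an eIF3 median of -0.153. Quantile scaling gave a polysome median of -0.088; loess gave -0.042, with 0.079 for elongation and 0.058 for TOP members, a cytosolic TOP median of 0.114 and a members' association median of -0.018. Centring moved all polysome calls from 1348 higher and 1296 lower to 1096 and 1682, and those between pools from 3326 and 7105 to 7291 and 3055 (quantile 4737 and 4026, loess 4772 and 4285). Probe-set means gave cytosolic medians of -0.174 (eIF2B) and -0.106 (elongation) and association medians of -0.098 (eIF3) and 0.088 (elongation). Median differences between pools, in the order members, eIF2, eIF2B, eIF3, TOP, were 0.135, -0.62, 0.706, 0.376 and 0.09 with quantile scaling, 0.06, -0.602, 0.72, 0.288 and -0.258 with loess (elongation -0.523), and 0.775, 0.083, 1.242, 0.947 and 0.54 with centring (elongation 0.315); probe-set means gave 0.13, 0.54, 0.168 and 0.034 for members, eIF2B, eIF3 and TOP. Pool differences changed sign for EIF1 (-0.388 with loess, -0.343 with probe-set means), EEF2 (-0.316, loess), EIF2S3, EEF1A1 and TPT1 (0.007, 0.315 and 0.28, centring), and EIF3M and GSPT1 (-0.342 and -0.228, probe-set means); the cause was not tested. No association of a member was called under the other alternatives run. With 4 arrays a group, dim probe sets such as those of EIF3C and EIF5A2 limit what can be seen.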

Other observations

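In same-numbered arrays, the cytosolic differences of replicates 2 and 4 were both below those of 1 and 3 for 9 of 37 members, both above for 16 and neither for 12. Examples chosen after their values were seen follow. For EIF1AX the cytosolic difference between PP242 and vehicle was -0.62, -1.81, -0.51 and -2.49 for replicates 1 to 4, for EIF3A -0.050, -1.02, 0.040 and -1.68, and for EIF3M -0.34, -1.06, -0.38 and -1.11, lowest in replicates 2 and 4 each time. For EIF3G it was 0.32, 0.66, -0.22 and 0.76, for EIF3H 0.11, 0.67, 0.010 and 0.80 and for EIF6 0.41, 0.79, -0.090 and 0.72, highest in replicates 2 and 4. The polysome differences of the same replicates did not spread in that way: they were -0.24, -0.11, -0.14 and -0.18 for EIF1AX, 0.32, 0.33, 0.20 and 0.030 for EIF3A and 0.020, -0.080, -0.40 and -0.32 for EIF3G. EIF3E, at -0.60, -0.42, -0.30 and -0.10, and EEF2K, at 0.47, 0.42, 0.28 and 0.43, showed neither order. What set these arrays apart was not tested.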
